A study of Homo sapiens with 16 samples.

Results

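The response to doxycycline (DOX) was followed outside chromosome 1 in a clone of HT1080, a human fibrosarcoma cell line, that carries 1 inducible copy of XIST on the short arm of chromosome 1 (1p). The genes described are those with a mean of at least 5 FPKM (fragments scaled by transcript length and by the number of mapped fragments) over the No DOX and the DOX library of the clone, with a symbol that occurs once and a position that is not on chromosome 1. These are 7026 of the 25606 genes kept from the table that holds the pair, and another 896 genes of the same level lay on chromosome 1 or had no position. Of the 7026, 7009 were above 0 in both libraries and have a ratio of DOX to No DOX, and 17 were listed at 0 in 1 of the libraries.

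XIST is the long non-coding RNA that coats the chromosome it is transcribed from and silences its genes in X-chromosome inactivation. It is known to act largely in cis, on the chromosome that makes it. In the cells used here a Tet repressor holds the promoter of a full-length XIST cDNA off until DOX, a tetracycline antibiotic, is added. Tetracyclines also bind bacterial-type ribosomes, and in mammalian cells they can slow protein synthesis in mitochondria and engage the integrated stress response, a programme in which the transcription factor ATF4 raises genes of amino acid supply.

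The compared libraries were 1 No DOX library, labelled 1A, and 1 library after 5 days of DOX, labelled 2A. Both come from HT1080 cells with XIST placed by Flp recombinase at an FRT site on 1p and selected with hygromycin; the labels do not say whether 1A and 2A were parallel cultures. The methods give HT1080 as diploid with rearranged chromosomes, among them a derivative chromosome 4 that carries part of 1p, and whether this XIST insert lies on it is not known. Genes of chromosome 4 are counted here as outside chromosome 1 and may lie in cis with XIST. All DOX libraries of XIST clones carry both the drug and the induced RNA, so the effects of DOX and of XIST cannot be told apart in this pair. With 1 library per condition no test was possible, and the only replicate spread is that of 2 DOX libraries with XIST on 8p, sequenced in another run, which the methods describe as separate clones. These 2 libraries are called the 8p DOX replicates here, and their difference can include one between clones. The 8p ratios set both against 1 No DOX library, so clone and drug are mixed there. The same genes were therefore set beside a No DOX and a DOX library of a clone with XIST on 12q from the same run, and beside the 8p libraries. Each pair holds its own libraries and each ratio was taken within 1 table. The 12q and 8p pairs include genes on the chromosome that carries their own XIST.

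Induction was visible in XIST itself, listed at chrX:72957219-72989313 of hg18. It was at 4.17 FPKM without DOX and at 22.0 FPKM with DOX, a ratio of 5.27. In the 12q clone it went from 3.75 to 67.6 FPKM, and in the 8p libraries from 3.38 to 99 and 89.7 FPKM. XIST was thus least induced in the 1p clone. The 1p clone with an empty vector and DOX, sequenced in the other run, was at 0.0705 FPKM, below every No DOX library with the XIST construct.

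The labelled cell type was checked on 7 lists of marker genes. Of 17 fibroblast or mesenchymal markers, 12 were at 5 FPKM or more in both libraries, led by VIM, the intermediate filament vimentin, at 2978 and 2878 FPKM. The fibrillar collagen genes COL1A1 (0.271 and 0.134 FPKM) and COL1A2 (0.0690 and 0.0767 FPKM) were near 0, and PRRX1 was at 0. Of 8 epithelial markers 7 were below 1 FPKM in both libraries. The endothelial, leukocyte and neural lists held 1, 1 and 2 genes at 5 FPKM or more (TIE1, CD68, TUBB3 and NCAM1), while PTPRC, CLDN5 and SOX2 were at 0. The summed level moved from 5259 to 4938 FPKM in the mesenchymal list and from 1.11 to 1.07 FPKM in the epithelial list. The libraries were alike in breadth, with 11121 and 11116 genes at 1 FPKM or more.

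Most genes outside chromosome 1 had nearly the same level with and without DOX. The median log2 ratio of DOX to No DOX was -0.0018 (order-statistic interval over genes, -0.0055 to 0.0006; genes are not replicates), and 75.9% of genes lay within 10% of no change. A gene was called raised where DOX was at least 25% above No DOX and lowered where it was at least 20% below, which is the same fold in both directions. By this threshold 58 genes (0.828%) were raised and 160 (2.28%) were lowered. Between the 8p DOX replicates, 60 (0.856%) of the same genes were higher and 67 (0.956%) lower in replicate 2. The order of the replicates is arbitrary, and their median log2 ratio was -0.049. With the median of each pair subtracted, 60 were raised and 157 lowered in the 1p pair. Between the replicates 103 were then higher and 41 lower. The lowered genes of the 1p pair outnumbered either count between replicates, with or without this step. The raised genes of the 1p pair were fewer than both counts without it and between the 2 counts with it. The SD of the log2 ratio was 0.15 over genes in the 1p pair and 0.17 between the 8p replicates. A single ratio near the threshold is within what these replicates show for some genes.

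The pairs of the other clones were wider. In the 12q pair 137 genes (1.96%) were raised and 800 (11.4%) lowered, with a SD of 0.26. In the 8p pair 719 (10.3%) were raised and 1875 (26.8%) lowered, with a SD of 0.39. These pairs were not centred, with median log2 ratios of -0.022 (12q) and -0.11 (8p). With the median of each pair subtracted, 163 genes were raised and 692 lowered in the 12q pair. In the 8p pair the counts were then nearly even, with 1195 raised and 1203 lowered. In each direction, the order of the 3 XIST sites in genes past the threshold was the order of their XIST induction. Each site has 1 No DOX library, the 8p libraries are from another run, and the 12q and 8p pairs include their own XIST chromosome. Clone, run, drug and XIST level cannot be told apart in this order, and a link was not tested. At 1.5-fold, 7 genes were raised and 28 lowered in the 1p pair, and 53 genes with a gene span under 1000 bp held 2 of the 7 and 13 of the 28.

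**Figure D1:**
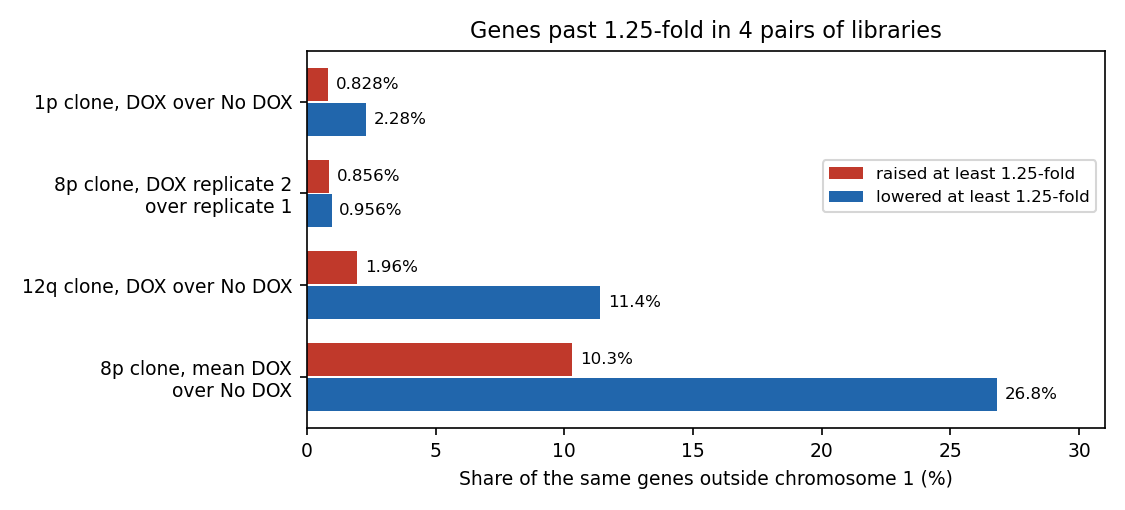
Bars give the share (%) of the genes outside chromosome 1 raised by at least 25% or lowered by at least 20% in 4 pairs of libraries, for the same genes in each. In the 1p pair 0.828% were raised and 2.28% lowered. Between the 8p DOX replicates, whose order is arbitrary, 0.856% were higher and 0.956% lower in replicate 2. Both shares of the 1p pair are below those of the 12q and 8p pairs. Ratios are not centred on the median of their pair.

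**Figure D2:**
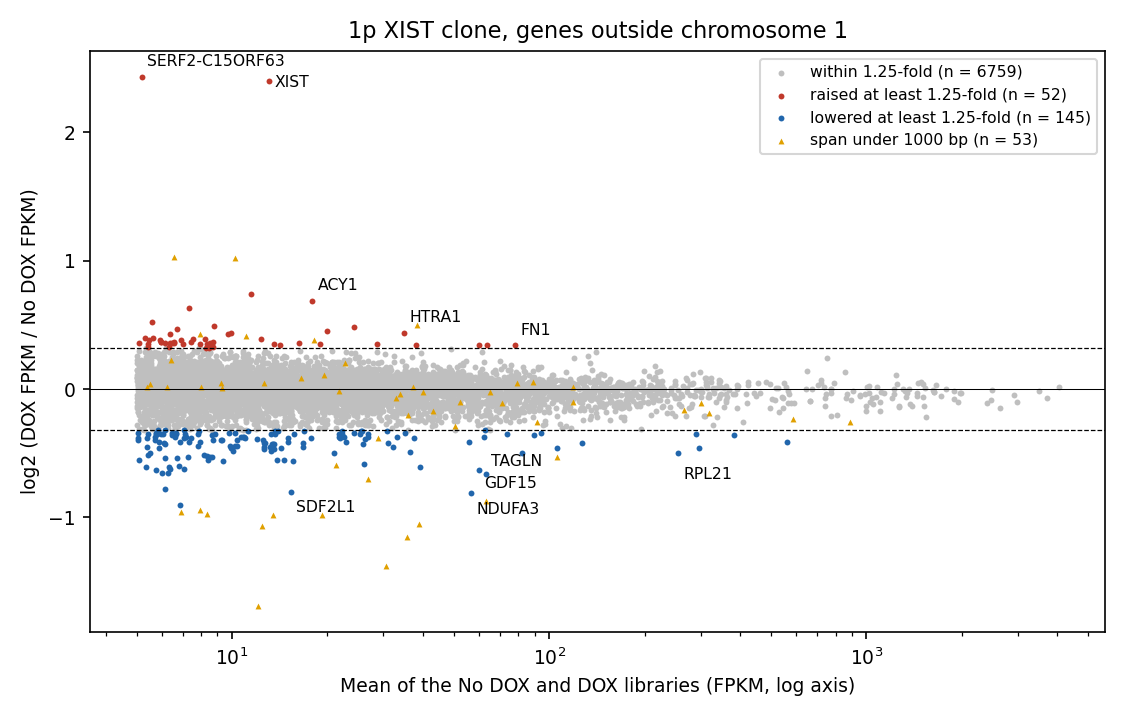
Each point is 1 of 7009 genes, with the mean FPKM of the pair on a log axis and the log2 ratio of DOX to No DOX on the other, and dashed lines mark the threshold (25% above and 20% below). Genes past the lines thin out as the level rises, and triangles, the 53 genes with a span under 1000 bp, scatter most.

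Besides XIST, the largest rises among genes with a span of at least 1000 bp were in entries that share sequence or transcripts with others. SERF2-C15ORF63, a readthrough of neighbouring genes, was at 1.63 FPKM without and 8.76 FPKM with DOX (log2 ratio 2.43). The genes it joins went the other way, SERF2 from 45.8 to 41.8 FPKM and HYPK, which encodes a partner of the N-terminal acetyltransferase complex, from 39.1 to 31 FPKM. GAGE8, of a family of near-identical cancer-testis genes, was at 8.62 and 14.4 FPKM. Reads of such entries can be split differently between libraries, so these ratios are uncertain.

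ACY1, the aminoacylase that frees amino acids from their N-acetyl forms, was at 13.7 FPKM without and 22.1 FPKM with DOX (log2 ratio 0.69). Its neighbour ABHD14A, chosen after its values were seen, on whose transcripts readthrough into ACY1 is annotated, was at 7.33 and 9.32 FPKM (0.35). VGF, a neuroendocrine secretory protein, was at 5.73 and 8.90 FPKM (0.63). TSC22D1, a leucine zipper protein of TGF-beta signalling, was at 20.2 and 28.1 FPKM (0.48), and LGALS3, which encodes galectin-3, at 16.9 and 23.1 FPKM (0.45). Further genes of this group were PQLC3 (0.52), the pseudogene DPY19L1P1 (0.49), the semaphorin SEMA3B (0.47) and the collagen receptor DDR1 (0.44). HTRA1, a secreted serine protease that cuts matrix proteins, was at 29.5 and 40.1 FPKM (0.44). Among genes with a span of at least 1000 bp, 2 were raised 2-fold or more (XIST and SERF2-C15ORF63) and 0 were lowered by as much.

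Among genes with a mean of at least 20 FPKM the next rises were smaller. FN1, fibronectin, was at 69.0 FPKM without and 87.5 FPKM with DOX (log2 ratio 0.34). NDRG1, a gene raised by hypoxia and metal shortage, was at 33.6 and 42.5 FPKM (0.34). TNFRSF21, a death receptor, was at 25.2 and 32.2 FPKM (0.35). FN1 had a log2 ratio of -0.39 in the 12q pair and of 0.73 in the 8p pair.

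The largest falls included a gene of the respiratory chain and its neighbours. OXLD1, an oxidoreductase-like protein, was at 8.91 FPKM without and 4.78 FPKM with DOX (log2 ratio -0.90). NDUFA3, an accessory subunit of respiratory complex I, was at 72.4 and 41.2 FPKM (-0.81), and so fell by 43.1%. NDUFA3 lies at chr19:59297971-59302093 (hg18) between OSCAR, at 7.93 and 5.45 FPKM (-0.54), and TFPT, at 7.65 and 4.88 FPKM (-0.65). The next genes, PRPF31 (-0.090) and CNOT3 (-0.20), were within the threshold. NDUFA3 and TFPT were also lower in the 12q pair (-0.35 and -0.34), while OSCAR was at 0.068.

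SDF2L1, a chaperone cofactor of the endoplasmic reticulum, was at 19.4 FPKM without and 11.1 FPKM with DOX (log2 ratio -0.80). ALKBH6, of the AlkB dioxygenase family, was at 7.78 and 4.53 FPKM (-0.78), and the potassium channel subunit KCNG1 at 7.36 and 4.68 FPKM (-0.65). ALKBH6 and KCNG1 were lower in the 12q pair as well, by -0.87 and -0.84, and so was NUDT22 (-0.62 in the 1p and -0.76 in the 12q pair). ACOT8, a peroxisomal thioesterase, had a log2 ratio of -0.63 and CTU2, an enzyme of tRNA thiolation, one of -0.61. Of the 12 largest falls, NDUFA3, TAGLN and GDF15 had a mean of at least 20 FPKM.

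Other genes with a mean of at least 20 FPKM fell less. FADS3, of the fatty acid desaturase family, was at 31.4 FPKM without and 20.9 FPKM with DOX (log2 ratio -0.58). TGM2, which encodes tissue transglutaminase, was at 95.9 and 67.8 FPKM (-0.50). RPL21, a ribosomal protein with many processed pseudogenes, was at 297 and 211 FPKM (-0.50) against 163 and 266 FPKM in the 12q pair. BCYRN1, a short RNA that the position table gives a span of 252197 bp, was at 47.2 and 30.9 FPKM (-0.61). The values of RPL21 and BCYRN1 are uncertain, since their reads also match other copies.

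Genes of the integrated stress response were lower with DOX in the 1p clone. Of 31 listed targets 23 were measured, 19 of them had a log2 ratio below 0, and the median was -0.15 beside -0.0018 over all genes, of which 50.8% were below 0. Past the threshold, 5 were lowered and 0 raised, beside 2.28% and 0.828% of all genes. GDF15, a stress-induced hormone of the TGF-beta family, was at 72.7 FPKM without and 47.1 FPKM with DOX (log2 ratio -0.63). CHAC1, which degrades glutathione, was at 9.99 and 6.83 FPKM (-0.55), and STC2, the secreted stanniocalcin-2, at 9.0 and 6.64 FPKM (-0.44). PPP1R15A, the GADD34 subunit that reverses eIF2-alpha phosphorylation, was at 19.1 and 14.3 FPKM (-0.42), and CEBPB, a dimer partner of ATF4, at 17.1 and 12.9 FPKM (-0.41). ATF4 itself was at 120 and 110 FPKM (-0.13), and ASNS, asparagine synthetase, at 49.6 and 41.4 FPKM (-0.26). DDIT3, the transcription factor CHOP, was at 11.5 and 10.2 FPKM (-0.18). The 4 members above 0 were ATF5, SLC1A4, SLC38A2 and XPOT, with log2 ratios from 0.016 to 0.055.

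**Figure D3:**
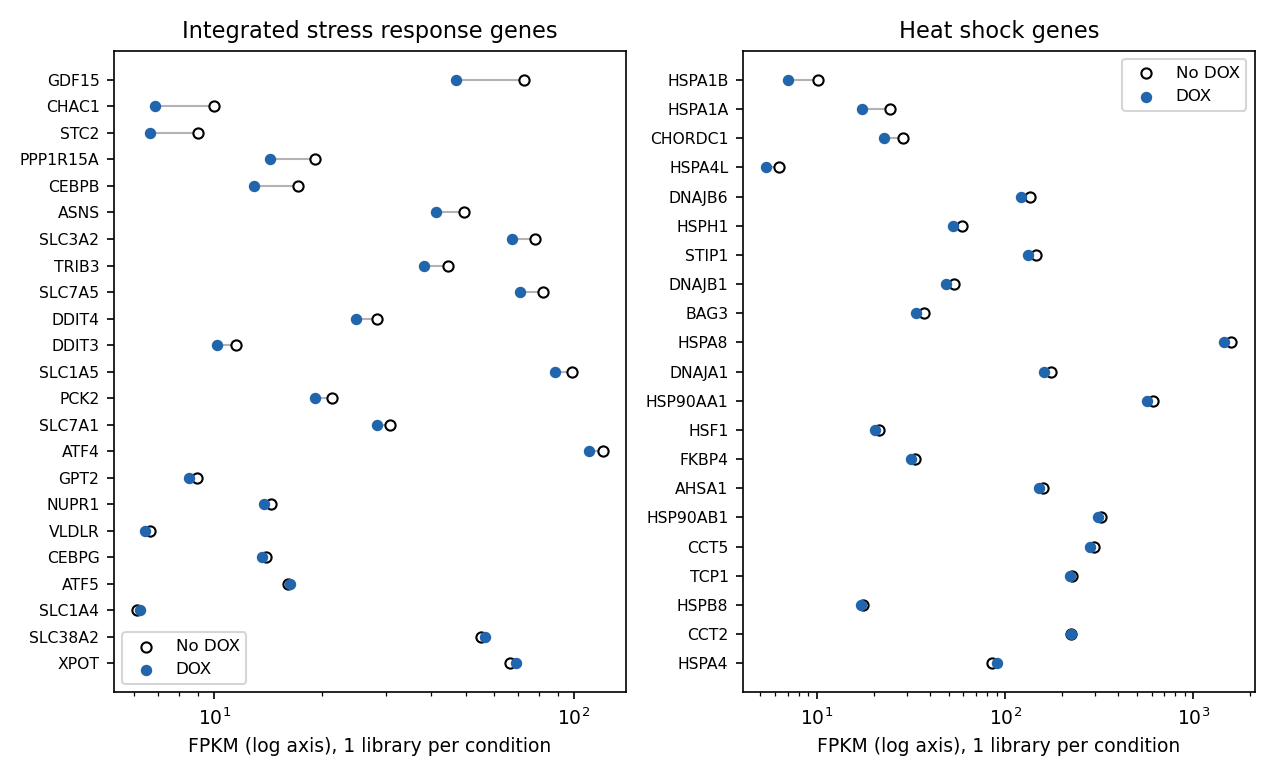
FPKM on a log axis without DOX (open circles) and with DOX (filled circles) in the 1p clone, 1 library per condition, for each measured gene of the integrated stress response and heat shock lists, ordered by ratio. The filled circle is to the left in 19 of 23 and in 19 of 21 genes.

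The same list went the other way in the other clones. In the 12q pair 18 of the 23 were above 0, and the median was 0.16 beside -0.022 over all genes. Past the threshold 7 were raised and 0 lowered, beside 1.96% and 11.4% of all genes. ASNS had a log2 ratio of 0.60 there and DDIT3 one of 0.74. In the 8p pair the median was 0.19 beside -0.11, with 8 raised and 2 lowered, beside 10.3% and 26.8% of all genes. Between the 8p DOX replicates, which share their condition, the list's median was 0.083 beside -0.049 over all genes. In another pair, the 1p XIST clone with DOX (labelled 4) over the 1p clone with empty vector and DOX, the list's median was 1.08 beside 0.16 over all genes, and CHAC1 and GDF15 differed by 4.11 and -1.23 on the log2 scale. These differences are larger than those of the 1p pair, but so is the spread over all genes, with a SD of 0.62 against 0.15. The vector clone also lacks the XIST construct, so clone and XIST cannot be told apart there.

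ATF4 binds with C/EBP partners to a composite element, searched here as TGATGNAA on either strand. It stood in the RefSeq promoter window, 250 bases before to 50 after the start, of 7 of the 21 list members that have one, against 4.46% of 27305 genes. The 7 members with it were ASNS, CEBPG, CHAC1, SLC1A4, SLC1A5, SLC3A2 and SLC7A1. Their median log2 ratio was -0.15, beside -0.19 for the members without it. CHAC1 and ASNS are shown because they had the lowest ratios of the 7. The CHAC1 window is chr15:40953221-40953520, plus strand, and that of ASNS chr7:97872359-97872658, minus strand, both of GRCh38.p14 and written 5′ to 3′ with the element in capitals. The element starts 209 bases before the start of CHAC1 and 68 bases before that of ASNS.
CHAC1: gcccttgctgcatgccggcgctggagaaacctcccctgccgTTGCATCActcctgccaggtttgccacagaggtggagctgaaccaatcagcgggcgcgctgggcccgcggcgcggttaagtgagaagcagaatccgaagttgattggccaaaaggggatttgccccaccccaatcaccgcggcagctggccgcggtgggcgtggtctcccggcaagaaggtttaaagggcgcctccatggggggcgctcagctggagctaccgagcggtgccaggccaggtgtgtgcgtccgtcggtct
ASNS: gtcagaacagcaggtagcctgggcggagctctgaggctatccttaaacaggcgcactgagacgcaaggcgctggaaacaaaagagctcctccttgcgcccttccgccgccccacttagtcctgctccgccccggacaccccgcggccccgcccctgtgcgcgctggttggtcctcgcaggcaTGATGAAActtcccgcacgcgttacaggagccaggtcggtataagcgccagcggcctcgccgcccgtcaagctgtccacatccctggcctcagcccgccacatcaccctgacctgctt

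Aminoacyl-tRNA synthetases and enzymes of serine and one-carbon metabolism are further genes under ATF4. Of 17 cytosolic synthetases 0 passed the threshold, and the median log2 ratio was -0.036. Of 10 measured enzymes of serine and one-carbon metabolism 0 passed, with a median of 0.0002. PYCR1, of proline synthesis, was at 28.0 FPKM without and 23.4 FPKM with DOX (-0.26), and PSAT1, of serine synthesis, at 147 and 133 FPKM (-0.15). SHMT2, the mitochondrial serine hydroxymethyltransferase, was listed at 0 without and at 95.4 FPKM with DOX. It was at 104 and 102 FPKM in the 12q pair and at 69.8, 81.0 and 82.1 FPKM in the 8p libraries, so that the 0 stands alone among these libraries and no fold is given.

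Heat shock genes, the cytosolic chaperones under HSF1, were also lower. Of 21 measured, 19 were below 0 and the median log2 ratio was -0.12, with 3 lowered and 0 raised past the threshold, beside 50.8% below 0 and 2.28% lowered over all genes. Between the 8p DOX replicates, which share their condition, the list's median was -0.093 beside -0.049 over all genes. HSPA1A and HSPA1B, near-identical genes of inducible Hsp70 between which reads cannot be assigned securely, were at 24.5 and 17.4 FPKM (-0.50) and at 10.1 and 6.99 FPKM (-0.53). CHORDC1, an Hsp90 cochaperone, was at 28.5 FPKM without and 22.7 FPKM with DOX (-0.33). The abundant members moved less, HSPA8 from 1595 to 1452 FPKM (-0.13) and HSP90AA1 from 614 to 570 FPKM (-0.11). In the 12q pair the list's median was 0.032 with 2 of 21 lowered, beside 11.4% of all genes there, and HSPA1A had a log2 ratio of -0.76. In the 8p pair 19 of 21 were below 0 with a median of -0.39, beside 63.7% below 0 and a median of -0.11 over all genes.

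The heat shock element was searched as GAANNTTCNNGAA on either strand. It stood in the promoter window of 6 of the 19 members that have one (CHORDC1, DNAJA1, DNAJB6, HSP90AA1, HSP90AB1 and HSPA8), against 0.608% of genes. The median log2 ratio was -0.13 with it and -0.14 without it. CHORDC1 is shown as the member with it that was past the threshold. Its window is chr11:90223000-90223299 of GRCh38.p14, minus strand, and holds 3 overlapping matches, in capitals, that begin 60 bases before the start.
CHORDC1: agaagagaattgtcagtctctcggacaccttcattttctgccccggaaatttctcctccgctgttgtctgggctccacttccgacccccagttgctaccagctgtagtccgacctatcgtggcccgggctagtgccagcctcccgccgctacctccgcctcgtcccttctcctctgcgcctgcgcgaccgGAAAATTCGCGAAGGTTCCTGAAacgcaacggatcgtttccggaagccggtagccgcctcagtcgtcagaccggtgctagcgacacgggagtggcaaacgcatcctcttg

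Chaperones of the endoplasmic reticulum had mostly small ratios. Of 22 measured, 17 were below 0, beside 50.8% of all genes. The median log2 ratio was -0.069, beside -0.0018 over all genes. Between the 8p DOX replicates it was -0.11, beside -0.049 over all genes. SDF2L1 alone was past the threshold. XBP1, a transcription factor of the unfolded protein response, was at 44.1 FPKM without and 36.9 FPKM with DOX (-0.26), the secreted MANF at 76.0 and 64.0 FPKM (-0.25), and HSPA5, the chaperone BiP, at 259 and 226 FPKM (-0.19). In the 12q pair 17 of the 22 were above 0, HSPA5 had a log2 ratio of 0.33 and HERPUD1 one of 0.49. The element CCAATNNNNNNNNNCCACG was in the promoter window of 7 of 20 members (0.0916% of all genes). The 7 had a median of -0.039, nearer to 0 than the -0.13 of the others.

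Genes of contraction and of TGF-beta signalling included some of the largest falls. Of 15 measured, 3 were lowered and 0 raised past the threshold, beside 2.28% and 0.828% of all genes. The median log2 ratio was -0.13, beside -0.0018 over all genes. Between the 8p DOX replicates it was -0.044, beside -0.049 over all genes. TAGLN, the actin-binding protein transgelin, was at 77.2 FPKM without and 48.8 FPKM with DOX (-0.66). ACTA2, smooth muscle actin, was at 8.55 and 5.55 FPKM (-0.62). CALD1, MYL9 and TPM2, further proteins of the actin apparatus, were within the threshold with log2 ratios of -0.25, -0.22 and -0.17, while SMAD7, an inhibitor of the pathway, was at 0.20. TAGLN was at 0.27 in the 12q pair. The list's median was -0.035 in the 12q and -0.21 in the 8p pair, beside -0.022 and -0.11 over all genes.

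Targets of YAP and TAZ, coactivators that respond to cell shape and density, overlapped with these in kind. Of 15 measured, 4 were lowered and 0 raised past the threshold, with a median log2 ratio of -0.088, beside 2.28% lowered over all genes. Over all genes the median of the 1p pair was -0.0018. Between the 8p DOX replicates the list's median was -0.096, beside -0.049 over all genes. ANKRD1, a classical target, was at 123 FPKM without and 89.3 FPKM with DOX (-0.46), and CTGF, a matricellular protein, at 70.4 and 54.5 FPKM (-0.37). The RhoGAP gene DLC1 was at 18.6 and 12.6 FPKM (-0.56), and the stress gene GADD45B at 15.4 and 12.0 FPKM (-0.35). The regulators themselves were not lower: YAP1 was at 30.5 and 31.2 FPKM, WWTR1 at 58.0 and 66.9 FPKM, and TEAD1 at 26.9 and 27.7 FPKM. None of the 15 was past the threshold in the 12q pair.

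The matrix and its proteases did not move as 1 group. Of 13 proteases and inhibitors, MMP2 (gelatinase A) was raised, from 4.87 to 6.43 FPKM (log2 ratio 0.40), and 1 was lowered. PLAU and PLAUR, urokinase and its receptor, were at 361 and 297 FPKM (-0.28) and at 129 and 105 FPKM (-0.30). Of 19 collagen and assembly genes FN1 alone was past the threshold, and of 13 integrins and laminins LAMA4 alone, from 6.18 to 7.86 FPKM (0.35). The collagen chaperone SERPINH1 was at 55.4 and 47.8 FPKM (-0.21).

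Hypoxia genes leaned upward. Of 16 measured, 14 had a log2 ratio above 0, the median was 0.093, and NDRG1 alone was past the threshold. Over all genes 3446 of 7009 were above 0, the median was -0.0018 and 0.828% were raised. FAM162A was at 43.9 FPKM without and 54.4 FPKM with DOX (0.31), EPAS1, which encodes HIF-2-alpha, at 8.86 and 10.8 FPKM (0.29), and CA12, a carbonic anhydrase, at 13.3 and 15.9 FPKM (0.26). VEGFA was at 18.7 and 19 FPKM. The list's median was 0.026 in the 12q and 0.17 in the 8p pair, beside -0.022 and -0.11 over all genes. In the glycolysis list 14 of 21 were above 0 with a median of 0.033, led by ALDOC (0.28), PDK1 (0.26) and PFKFB4 (0.26). The ferritin heavy chain FTH1 was at 689 and 817 FPKM (0.24) and the transferrin receptor TFRC at 212 and 234 FPKM (0.14), in a list of 10 iron genes of which 0 passed the threshold.

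**Figure D4:**
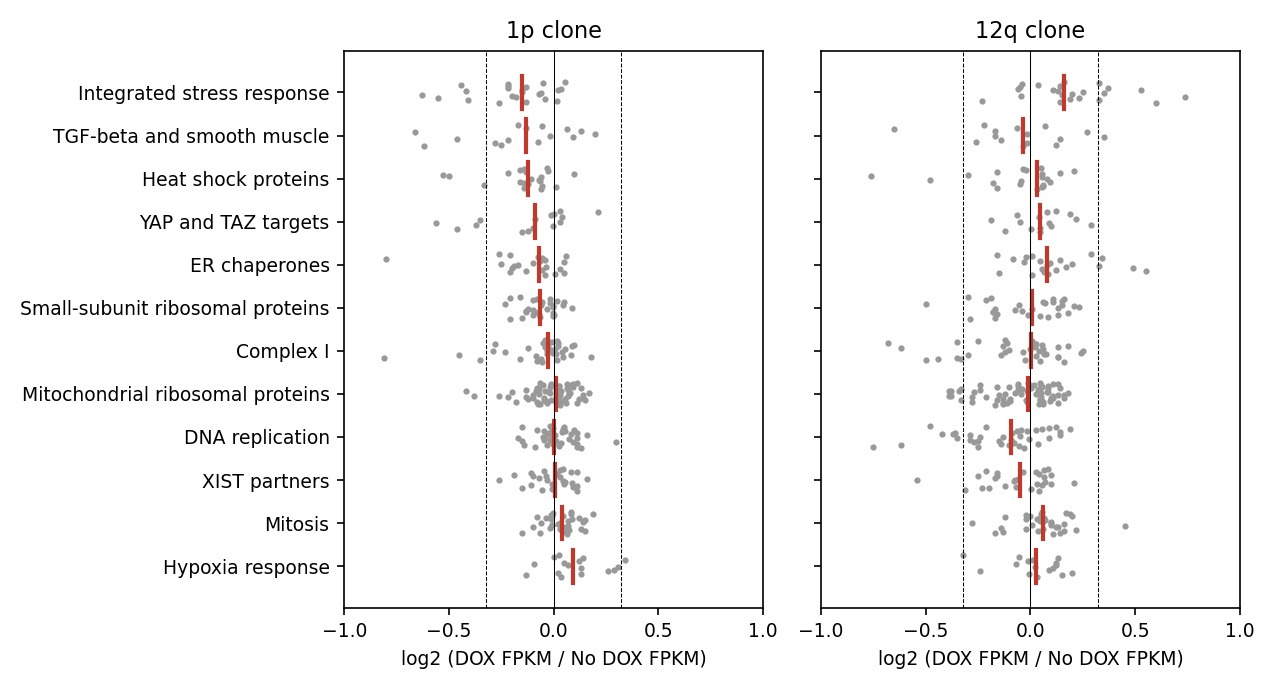
Grey points are the log2 ratios of DOX to No DOX of the measured genes of 12 lists in the 1p and the 12q clone, red bars are list medians, and dashed lines mark the threshold (25% above and 20% below). The integrated stress response has a median of -0.15 in the 1p and 0.16 in the 12q pair, and DNA replication and XIST partners are centred near 0 in the 1p pair.

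In 5 lists of nuclear genes of the mitochondrion, 7 of 164 genes were lowered (4.27%, beside 2.28% over all genes) and 0 raised. Of 36 complex I genes 3 were lowered (NDUFA3, NDUFA7 at -0.45 and NDUFA11 at -0.35) and 0 raised, and the median log2 ratio was -0.027. Of 22 genes of complexes II to IV COX8A (-0.35) was lowered, and of 15 ATP synthase genes ATP5D, at 42.4 FPKM without and 30.3 FPKM with DOX (-0.49), which was also lower in the 12q pair (-0.52). Of 68 mitochondrial ribosomal proteins MRPL54 (-0.42) and MRPL41 (-0.38) were lowered, with a median of 0.012. NDUFA3, NDUFA7, NDUFA11 and ATP5D lie on chromosome 19, where 6.00% of all genes were lowered. NDUFA3, ATP5D, COX8A and MRPL41 are in the shortest class of gene span, where 8.44% were lowered. Among 23 mitochondrial stress proteins 0 passed the threshold, and the protease CLPP had the largest ratio, from 39.7 to 31.8 FPKM (-0.32). Genes encoded in mitochondrial DNA were not analysed here.

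Genes of growth and of the gene expression machinery had medians close to 0. In DNA replication 0 of 38 genes passed the threshold, with a median log2 ratio of 0.0031, and in mitosis 0 of 34, with a median of 0.043 and TOP2A from 70.5 to 80.6 FPKM (0.19). The same lists had medians of -0.94 and -0.49 in the 8p pair, beside -0.11 over all genes. Small-subunit ribosomal proteins had a median of -0.063 with 24 of 29 below 0, beside 50.8% of all genes, and 0 past the threshold. Large-subunit ones had a median of -0.035, with RPL21 alone past the threshold. Of 31 proteasome genes and 33 splicing factors 0 passed. Of 28 XIST partners and silencing factors, among them the Polycomb and SPEN-associated genes, 0 passed. Their log2 ratios ran from -0.26 to 0.16, the latter that of PCGF5. Genes of the p53 response had a median of -0.040 and 0 of 17 past the threshold, with CDKN1A at 63.1 and 56.2 FPKM.

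Signalling and immune lists held few called genes. Of 20 ERK targets and immediate early genes 0 passed the threshold, with the phosphatases DUSP5 at -0.28 and DUSP4 at 0.27. Of 16 measured interferon and antigen presentation genes 0 passed, and the lowest ratio was that of IFI35 (-0.30). NFKB2, from 7.97 to 6.26 FPKM (-0.35), was the called gene of 7 measured inflammatory genes. In cholesterol synthesis the mevalonate decarboxylase MVD was at 17.3 and 11.8 FPKM (-0.55) and was the called gene of 19. The zinc transporter SLC39A11 (0.32) did not reach the threshold, and MT2A, a metallothionein, was at 967 and 807 FPKM (-0.26). In the 40 lists with at least 5 measured genes, medians ran from -0.16 to 0.093, and 28 of the 40 were within 0.05 of 0.

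Short genes varied most. Of 69 genes with a span under 1000 bp, of which 46 were small nucleolar, small Cajal body or microRNA entries, 53 had a ratio, with 6 raised (11.3%) and 15 lowered (28.3%) and a SD of 0.55. Another 16 were listed at 0 in 1 library. SNORA81, SNORA4 and SNORA63, which guide pseudouridylation of ribosomal RNA, all lie in introns of EIF4A2 (chr3:187984054-187990379, hg18). SNORA81 was at 18.5 FPKM without and 5.73 FPKM with DOX (log2 ratio -1.69), and SNORA4 at 44.2 and 17.0 FPKM (-1.38). SNORA63 was at 52.6 and 25.4 FPKM (-1.05), and MIR1248, an entry that overlaps SNORA81, at 126 and 87.1 FPKM (-0.53). EIF4A2 was at 230 and 217 FPKM (-0.086). In the 12q pair SNORA81 went from 2.21 to 15.1 FPKM (2.77) and MIR1248 from 66.4 to 0.307 FPKM (-7.76). Between the 8p DOX replicates MIR1248 differed by 2.65 on the log2 scale and SNORA81 by -0.38. Reads of overlapping entries can be split differently between libraries, so these ratios are uncertain.

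The ratios moved with gene span. The median log2 ratio was -0.050 in the shortest of 10 span classes (71 to 4471 bp) and 0.036 in the longest (124464 bp and more), and 8.44% of genes were lowered past the threshold in the shortest class against 1.14% in the longest. The 12q pair had medians of -0.092 and 0.028 in these classes, and the 8p DOX replicates, which share their condition, had 0.025 and -0.095. The integrated stress response list kept a median of -0.13 after the median of each span class was subtracted, and the heat shock list one of -0.096. The small-subunit ribosomal proteins were then at -0.021 and the large-subunit ones at 0.0077. How far span acts on single genes was not tested.

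**Figure D5:**
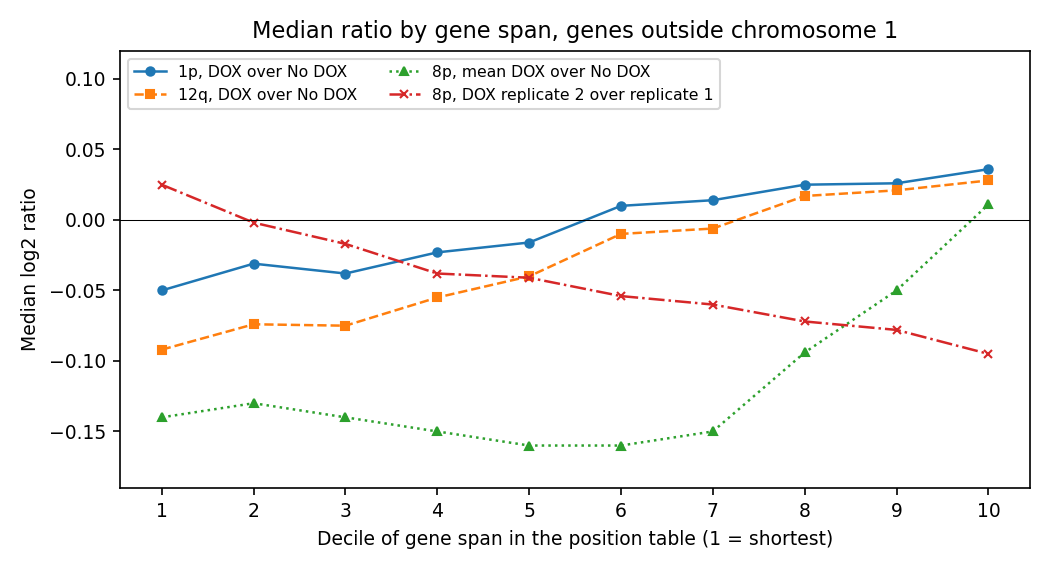
Median log2 ratio in 10 classes of gene span, from the shortest to the longest genes, in 4 pairs of libraries. The 1p medians go from -0.050 to 0.036 and those of the 12q pair from -0.092 to 0.028, while those between the 8p DOX replicates go from 0.025 to -0.095.

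Over chromosomes with at least 50 genes, the medians of the 1p pair lay between -0.039 and 0.022, apart from chromosome 19, where 450 genes had a median of -0.080 and 27 (6.00%) were lowered and 0 raised. On chromosome 4, part of which may lie in cis with XIST, 254 genes had a median of 0.020, with 2 lowered (0.787%) and 0 raised. Chromosome 19 was also the lowest in the 12q pair, at -0.23. Of 231 windows of 10 Mb with at least 10 genes, 4 had a median beyond 0.1 from 0, and the range was -0.11 to 0.11. The lowest was the first 10 Mb of chromosome 19, with 113 genes. Calls also followed level: 1.91% of genes were raised and 3.41% lowered at 5 to 10 FPKM, and 0 raised and 1.42% lowered at 100 FPKM and above.

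The lowered genes of the 1p pair were often lower in the 12q pair. Of the 160, 65 were lowered past the threshold there too (40.6%, beside 11.4% of all genes) and 11 were raised (6.88%, beside 1.96%). The 65 were 8.12% of the 800 genes lowered in the 12q pair, beside the 2.28% of all genes lowered in the 1p pair. Of the 58 raised genes 5 were raised in the 12q pair (8.62% of the 58, beside 1.96% overall) and 12 were lowered (20.7%, beside 11.4%). In the 8p pair 24 of the 58 raised genes were raised (41.4%, beside 10.3% overall) and 10 lowered (17.2%, beside 26.8%). Of the 160 lowered genes 42 were lowered in the 8p pair (26.2%, beside 26.8% overall) and 27 raised (16.9%, beside 10.3%). Over all genes the log2 ratios of the 1p and 12q pairs had a Spearman correlation of 0.23 (n = 6994 genes, which share a run, span and level effects), and those of the 1p and 8p pairs one of 0.0099 (n = 6993).

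In all 3 pairs 2 genes were raised and 19 lowered past the threshold. The 2 are among the 5 raised in both the 1p and 12q pairs, beside 10.3% of all genes raised in the 8p pair. The 19 are among the 65 lowered in both, beside 26.8% of all genes lowered in the 8p pair. Whether the 3-way counts exceed these shares was not tested. The raised genes were XIST and HTRA1, the latter at 3.66 and 5.00 FPKM in the 12q pair, with log2 ratios of 0.44, 0.45 and 0.55 in the 1p, 12q and 8p pairs. Among the lowered genes was HSPA1A, with log2 ratios of -0.50, -0.76 and -0.75. In the 8p libraries HSPA1A was at 2.84 FPKM without and at 1.79 and 1.57 FPKM with DOX, below 5 FPKM. Its reads cannot be assigned securely between it and HSPA1B. CHMP6, of the ESCRT-III complex, was at 8.61 and 5.97 FPKM in the 1p pair (-0.53). FAM89B (-0.42), the zinc finger gene ZNF703 (-0.41), PHLDA2 (-0.41), an imprinted gene that limits placental growth, and PQLC1 (-0.40) followed, with MIR1248 and SNORA4 among the short genes. ZNF703 lies on chromosome 8, which carries XIST in the 8p clone, and its 8p value is -1.59. In the HiSeq pair of the 1p XIST clone over the vector clone, both with DOX, HTRA1 was at 1.30 and HSPA1A at 1.80. The HSPA1A value rests on 2.93 and 0.840 FPKM.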

How the data were processed

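Poly(A) RNA of HT1080 clones was sequenced by the authors as stranded, paired-end libraries, aligned to hg18 with TopHat and Bowtie, and quantified with Cufflinks; versions were not given in the sources used here. The deposited values are FPKM, scaled by the authors for library size and transcript length, in a table of 4 NextSeq and one of 6 HiSeq libraries. Sequencing depth cannot be read from FPKM and is unknown, so values carry no counting interval.

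For NextSeq, 878 lines with repeated symbols, 26 with symbols turned into dates and 2 without a value were left out. Positions came from the HiSeq table, by symbol for 21031 genes and through RefSeq synonyms for 863; 256 of the 7026 genes described were placed by synonym. Ratios are log2(DOX FPKM / No DOX FPKM) with no pseudocount, and 1.25-fold, 25% up or 20% down (0.32 on the log2 scale), counts as raised or lowered. The 2 DOX libraries with XIST on 8p, which the methods describe as separate clones, were averaged, except where they were compared. Tables were never mixed in a ratio.

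Genes were named by rule: the 12 largest ratios in each direction with a span of at least 1000 bp, the 8 largest with a mean of at least 20 FPKM, up to 4 members of each list plus members whose role is described, and those past 1.25-fold in all 3 pairs. Neighbours of named genes and SHMT2 were named after their values were seen. The genes and lists were chosen with earlier results of these data known. Steps were tested on simulated data. Python 3.11.15, numpy, pandas and scipy were used. Promoter windows are from RefSeq (GRCh38.p14). The alternatives were other folds, level filters, a pseudocount of 1 FPKM, median scaling, exact symbols, a span filter and, chosen after seeing the data, subtraction of the median of the span class. ChIP-seq was not analysed here. Some genes that meet the naming rules are not reported here.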

Additional observations from a re-analysis of the deposited data

Results flagged for a closer look

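In the results named above, 9 genes and 1 list were past the threshold of 25% up or 20% down (for the list, a median beyond 0.1 over at least 5 genes in each pair) in opposite directions in the 1p and the 12q pair. Each direction rests on 1 library per condition, and the difference between the clones was not tested. The median of the integrated stress response targets was -0.15 on the log2 scale in the 1p pair and 0.16 in the 12q pair. CEBPB, a dimer partner of ATF4, had log2 ratios of -0.41 and 0.33. FN1, fibronectin, had 0.34 in the 1p and -0.39 in the 12q pair. SEMA3B had 0.47 and -0.39, and VGF 0.63 and -0.44. RPL21, whose reads also match pseudogenes, had -0.50 and 0.71. ABHD14A had 0.35 and -0.67. The small nucleolar RNA genes SNORA81 and SNORA63 had -1.69 and 2.77, and -1.05 and 0.39. Both have a span under 1000 bp, where ratios scatter most, and SNORA81 overlaps the entry MIR1248, so these values are uncertain. GAGE8, of a family of near-identical genes, had 0.74 and -7.12, and was at 0.0735 FPKM in the 12q DOX library. The C/D small nucleolar RNAs had a median of -0.16 over 7 genes in the 1p pair and of 0.52 in the 12q pair, where 2 genes had a ratio.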

How the results depend on the processing

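Counts of genes past the fold followed the fold and the level filter. At 1.5-fold 7 genes were raised and 28 lowered, and at 2-fold 4 and 5. With a mean of at least 1 FPKM 265 were raised and 393 lowered, with at least 10 FPKM 20 and 92, and with every gene above 0 in both libraries 1153 and 1244. A pseudocount of 1 FPKM left 38 raised (127 lowered). Median scaling, exact symbols, the span filter and subtraction of span medians moved neither count by over 1.5 times. The overall median log2 ratio was 0.0016, -0.0060 and 0.0054 with the 3 level filters. Over 40 list medians, 237 of 240 values under the alternatives stayed inside the main interval over genes, and none of the medians beyond 0.1 changed sign. The H/ACA small nucleolar RNAs had the largest move, from 0.015 to -0.79 with a mean of at least 10 FPKM, inside a main interval of -0.97 to 0.046. The integrated stress response median ranged from -0.19 to -0.13, the heat shock one from -0.13 to -0.096, and the hypoxia one from 0.086 to 0.13. Of 41 named genes, XIST (2.15) and SERF2-C15ORF63 (1.89) moved beyond the 8p replicate SD with the pseudocount. No replicate could be left out of a pair with 1 library per condition. No paired analysis was possible because the 1p libraries carry different replicate names. Unknown depth limits what can be said of genes at 5 to 10 FPKM.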
